A study of Rattus norvegicus with 15 samples.

Results

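The data described here are mRNA levels of cells labelled as rat brain microvascular endothelial cells (BMECs). Cells exposed to 5 Gy of x-rays and collected 24 h later were compared with unexposed control cells. The comparison used 6 libraries of the 15 in the series, 3 from the 5 Gy 24 h group and 3 from the control group, and covered every gene name whose mean level over the 15 libraries was at least 0.5 FPKM. FPKM is a fragment number corrected for transcript length and library size. Of 28906 gene names, 13081 passed that limit and were tested. LOC688981 and Btbd11 were just inside it, with means of 0.5001 and 0.5009 FPKM, and AC098459.1 and Bach2 were just outside, both with 0.4999 FPKM.

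All the cells were primary cultures from cerebral microvessels of Sprague-Dawley rats, littermates of both sexes aged 2 to 3 weeks. The 5 Gy 24 h cells were kept in culture for 24 h after the exposure, whereas the control cells were labelled as cultured for 12 h without it, and their labelled range of body weights was narrower. An unexposed 24 h culture was not analysed here, so the effect of 5 Gy and that of the additional culture time cannot be told apart in this comparison. Cells collected 12 h after 5 Gy and 24 h after 20 Gy, with 3 libraries each, were used to show where the 5 Gy 24 h values differ from them. The study calls its replicates biological, but the labels do not say which cultures or which of the littermates they came from. The p-values therefore measure the spread between these libraries.

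X-rays break DNA, and breaks activate the kinases ATM and ATR and through them the transcription factor p53. p53 induces genes that hold the cell cycle, such as Cdkn1a, that feed back on p53 itself, such as Mdm2, and that can start cell death, such as Bax. Cells that stop dividing lose the transcripts of mitosis and DNA replication. In the vessels of the brain, endothelial cells form the blood-brain barrier together with pericytes and astrocytes, and they divide rarely in the adult but readily in culture.

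The libraries held 5.44 to 6.82 gigabases of aligned sequence in the 5 Gy 24 h group and 6.23 to 6.73 in the control group, as read from the steps between low FPKM values. Pearson's r of log2(FPKM + 1) between replicates, across genes, which are not independent replicates, was 0.973 to 0.974 in the 5 Gy 24 h group and 0.973 to 0.975 in the control group. Between the 2 groups it was 0.845 to 0.862, with no pair as high as any pair of replicates.

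The label of the cells was checked against markers of the cell types of brain vessels. Defining endothelial genes were listed at or near 0 in both groups: the junction gene Cdh5 was at 0.12, 0.275 and 0.177 FPKM in the control libraries and 0, 0.0405 and 0.0227 FPKM in the 5 Gy 24 h libraries, and Vwf did not exceed 0.097 FPKM in any of the 6. Claudin-5 (Cldn5), the main tight junction protein of this barrier, was listed at 0 in 5 of the 6 libraries, although a 0 in this table can also be a failed estimate, as for the common chaperone Hspa8 in a locus with several names, and 15 of the 28 endothelial genes measured were below the limit for testing. In contrast, genes known from fibroblasts were abundant in control cells, with Col1a1 at 535, 546 and 467 FPKM, Fn1 at 2180, 2560 and 2430 FPKM and Dcn at 192, 174 and 220 FPKM. The low values of Cdh5 and Vwf thus went against the label, and Pecam1 was not analysed here. Other endothelial genes were detected: 13 passed the limit, and the 28 together summed to 129 to 151 FPKM in control libraries. Of 20 fibroblast and meningeal genes measured 3 were below the limit, and 2 were listed at 0 in all 6 libraries. The markers of neurons (Rbfox3), oligodendrocytes (Mbp) and leukocytes (Ptprc) were listed at 0 in all 6 libraries, but other genes of such lists were not low. In control libraries Cldn11, known from oligodendrocytes and meninges, was at 861, 738 and 596 FPKM, and Gja1, known from astrocytes and fibroblasts, at 749, 614 and 504 FPKM.

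**Figure D1:**
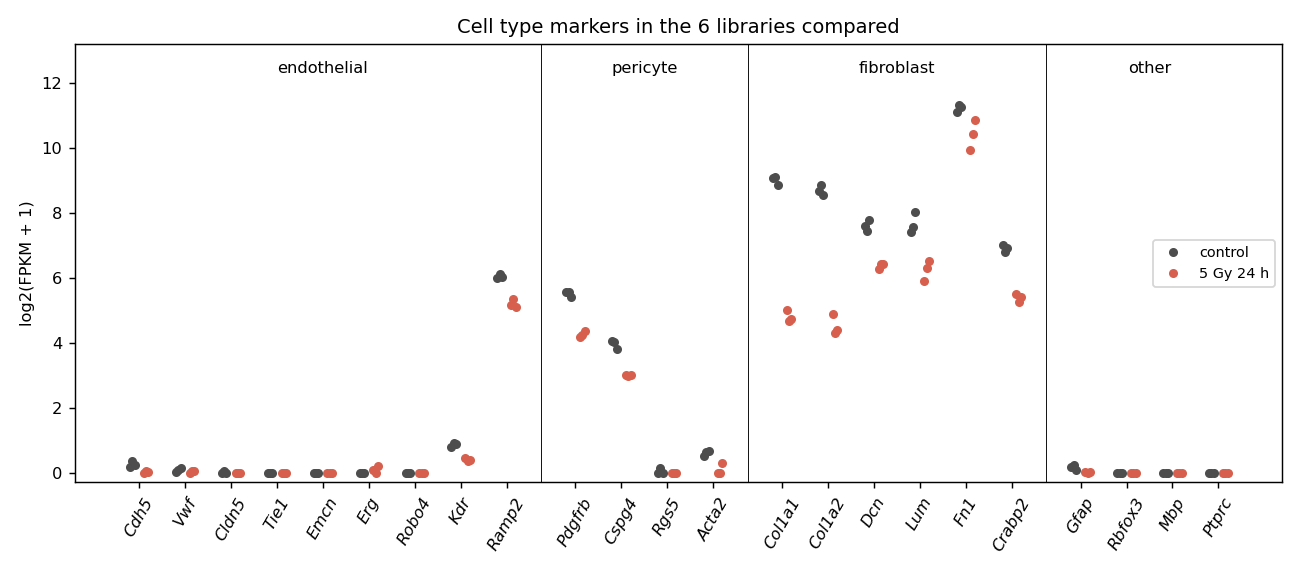
Levels of cell type markers as log2(FPKM + 1), with a point for each control library (grey) and each 5 Gy 24 h library (red). The endothelial genes plotted, other than Ramp2, lay at 0.866 FPKM or lower in both groups. The fibroblast genes plotted were high, with Col1a1 at 467 to 546 FPKM in the control group and 24.4 to 31 FPKM in the 5 Gy 24 h group. Only some members of each list are plotted. Of 28 endothelial genes measured 13 passed the limit for testing, and of 20 fibroblast and meningeal genes 3 did not.

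A gene was called higher or lower when its adjusted p was below 0.05 (limma, Benjamini-Hochberg adjustment over the 13081 genes) and the difference of the group means of log2(FPKM + 1) was at least 1.5-fold. This difference is given as the log2 change with its standard error (SE), and it understates the change of genes with low FPKM. At 24 h after 5 Gy 5603 genes (42.8%) were called, 2910 of them higher (22.2%) and 2693 lower (20.6%) than in control cells. With named transcripts alone 3608 were called and the balance turned, with 1600 higher and 2008 lower. The change was at least 4-fold in 233 genes called higher and 269 called lower. In 9229 genes (70.6%) the 3 exposed libraries did not overlap the 3 control libraries, 35.1% above and 35.5% below them. Because so many genes differed, the counts below are read against these shares. The median log2 change of all tested genes was -0.03. Rescaling each library to the same FPKM sum moved this median by 0.12, and the share of higher genes among those called from 51.9% to 61.5%. In bulk RNA a lower level cannot be told apart from fewer cells that express the gene.

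**Figure D2:**
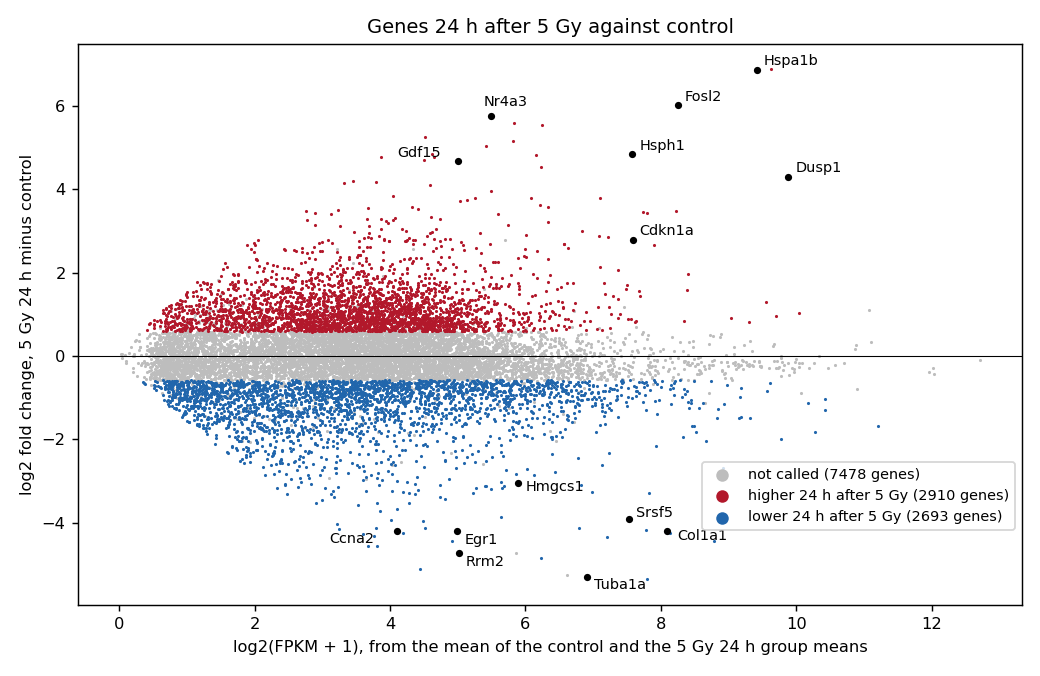
Log2 change of each tested gene at 24 h after 5 Gy (vertical axis) against its mean log2(FPKM + 1) over both groups (horizontal axis), with genes called higher in red, called lower in blue and not called in grey. Both directions held similar numbers, 2910 and 2693 genes, and the named genes in black include Hspa1b at 6.87 and Tuba1a at -5.30.

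The 12 largest rises among genes with a mean of at least 5 FPKM and groups that do not overlap were dominated by chaperones and by transcription factors of the immediate early class. Hspa1b, an inducible chaperone of the HSP70 family (Rnor_6.0 chr20:4877324-4879779), was at 11.1, 11.0 and 9.15 FPKM in the control libraries and at 1610, 1410 and 1040 FPKM at 24 h after 5 Gy. That the groups do not overlap was a condition of the choice, and the log2 change was 6.87 (SE 0.14, adjusted p = 4.25e-12). LOC108348108 on the same chromosome (chr20:2699712-2701815), which also rose by 6.87 on the log2 scale, has a nearly identical pattern, and reads of HSP70 copies could have been split between them. Hspa1l, another member of the family, was at 0.534, 0.829 and 0.875 FPKM in control cells and at 44.3, 181 and 21.9 FPKM after exposure, a log2 change of 5.04. Almost all of that signal lay in assembled transcripts without a name, and with only its most abundant transcript the change was -0.0715 (adjusted p = 0.981). Hsph1, which helps HSP70 exchange its nucleotide (chr12:6322668-6341902), was at 13.6, 11.7 and 10.4 FPKM and rose to 396, 396 and 315 FPKM, with a log2 change of 4.84 (SE 0.15, adjusted p = 1.2e-10).

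The orphan nuclear receptors Nr4a3 and Nr4a2, transcription factors that are induced within hours of many stimuli, were nearly silent in control cells. Nr4a3 (chr5:63781801-63821637) was at 0.457, 0.795 and 0.653 FPKM in the control group and 93.4, 87.2 and 80.4 FPKM in the 5 Gy 24 h group, with a log2 change of 5.75 (SE 0.14, adjusted p = 1.68e-11). Nr4a2 went from 2.35, 1.89 and 1.95 FPKM to 113, 116 and 95.4 FPKM. Their replicates varied by far less than the groups differed, but both genes were chosen for large changes without overlap. Crem, which encodes modulators of cyclic AMP signalling, was at 3.73, 3.73 and 4.04 FPKM in the control group and 147, 148 and 115 FPKM after exposure. Fosl2, a partner of JUN proteins, rose from 7.92, 9.13 and 7.64 FPKM to 709, 567 and 520 FPKM, but only 2.97% of its FPKM was in transcripts that carry its name, and with these alone the log2 change was 2.14 (adjusted p = 0.22) instead of 6.01. Gem, a small GTP-binding protein, was listed at 0 in 2 control libraries and 0.4 FPKM in the other and reached 39.7, 30.3 and 60.8 FPKM. It shares an assembled locus on chromosome 5 with AABR07047256.1, which rose by 5.59 on the log2 scale, so the division of reads between both is uncertain. RF00016, the name of a family of small nucleolar RNAs with several loci, rose by 5.53 on the log2 scale. The libraries were made from poly-A RNA, so this value may not measure the mature small RNAs. Aen, a p53-induced nuclease, rose by 4.84 on the log2 scale from 0.514, 1.65 and 0.0124 FPKM to 64.4, 38.3 and 36.2 FPKM. Aen shares its locus with another gene name.

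The largest falls included tubulins, cell cycle genes and the short mitochondrial transcripts AY172581.23 and AY172581.20. Tuba1a (chr7:140637287-140640953), an alpha-tubulin of the microtubules, was at 210, 257 and 227 FPKM in control libraries and 4.79, 1.13 and 15.3 FPKM in exposed libraries, a log2 change of -5.30 (SE 0.53, adjusted p = 2.11e-06). Its neighbour Tuba1b in the same assembled locus fell by 5.36 on the log2 scale, and reads of these paralogs may have been shared. Pclaf, a partner of the replication clamp PCNA, went from 32.5, 37.6 and 53.4 FPKM to 0.294, 0.148 and 0.151 FPKM, a log2 change of -5.11 (SE 0.37, adjusted p = 1.49e-07). Rrm2, a subunit of ribonucleotide reductase, which makes the building blocks of DNA, went from 46.5, 64.8 and 72.3 FPKM to 1.04, 1.16 and 1.72 FPKM. Cdca3, which is needed for entry into mitosis, fell by 4.33, and the early response factor Egr3 by 4.55, from 21.8, 25.5 and 29.9 FPKM to at most 0.178 FPKM. That all of these groups lay apart without overlap was a condition of the choice of these genes.

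Timp1, an inhibitor of matrix metalloproteinases, was at 108, 119 and 161 FPKM in the control group and 0.298, 0.239 and 53.8 FPKM in the 5 Gy 24 h group. Its log2 change was -4.85 (adjusted p = 0.0126), which became -3.96 (adjusted p = 0.0564) without the first and -3.93 (adjusted p = 0.0572) without the second exposed library, and its locus holds another gene name. A pair of short transcripts of the mitochondrial genome, AY172581.23 and AY172581.20, fell by 4.55 and 4.43. AABR07067556.1, a short transcript that overlaps Col3a1 on chromosome 9, fell by 4.45. NEWGENE_621351 on chromosome 4 and Mir22, the host locus of a microRNA and not the mature microRNA, fell by 4.34 and 4.28, but most of their FPKM was in transcripts without a name, and with named transcripts alone their changes were -0.72 (adjusted p = 0.631) and -1.50 (adjusted p = 0.176).

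**Figure D3:**
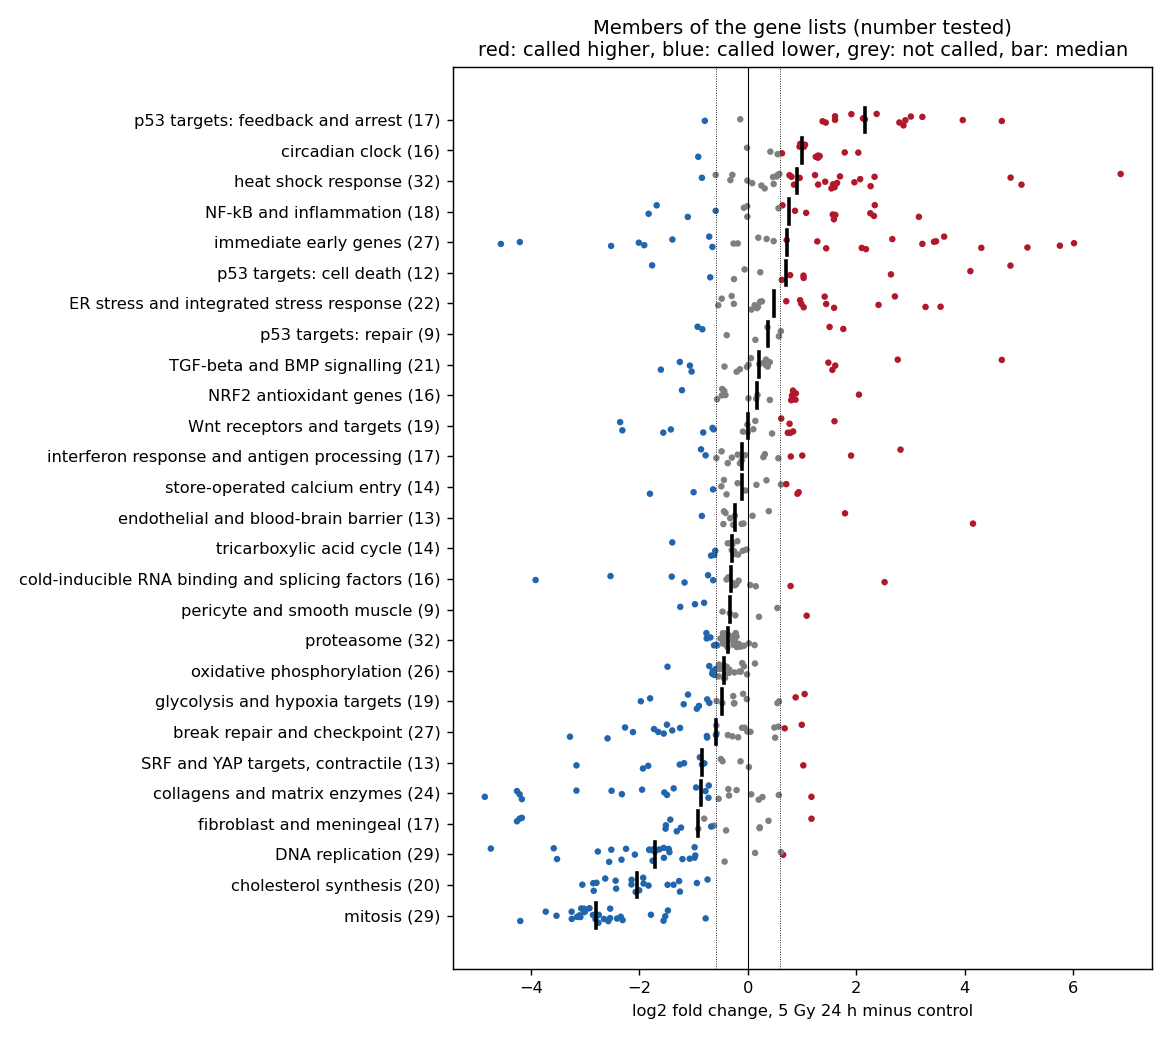
Log2 change at 24 h after 5 Gy of each tested member of 27 gene lists, with the number tested in parentheses, genes called higher in red, called lower in blue, not called in grey and the list median as a bar. The arrest targets of p53 lay at the top with a median of 2.16, and cholesterol synthesis and mitosis at the bottom with -2.04 and -2.81.

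Most targets of p53 that feed back on it or hold the cell cycle rose. Of 17 tested, 15 were called higher and 1 lower, with a median log2 change of 2.16. Gdf15, a secreted stress cytokine (chr16:20555395-20557978), was at 1.25, 1.22 and 1.82 FPKM in control libraries and 61.5, 61.9 and 59.6 FPKM at 24 h after 5 Gy, a 42.7-fold ratio of the group means (log2 change 4.68, SE 0.14, adjusted p = 8.81e-11). Mdm2, the ubiquitin ligase that degrades p53, was at 22.7, 23.2 and 26.7 FPKM and rose to 179, 202 and 222 FPKM, with a log2 change of 3.00, or 1.78 with named transcripts alone. Cdkn1a, which encodes the cyclin-dependent kinase inhibitor p21, was at 52.1, 31.6 and 56.8 FPKM and at 475, 247 and 281 FPKM after exposure. The exposed libraries of Cdkn1a were all above the controls but spread widely, the log2 change was 2.79 (SE 0.33, adjusted p = 9.37e-06), and with named transcripts alone it was 1.67 (adjusted p = 0.454).

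The other arrest targets had tighter replicates. The polo-like kinases Plk2 and Plk3 rose by 3.96 and 2.90, the antiproliferative factor Btg2 by 3.22, the stress protein Tp53inp1 by 2.87, the metabolic stress sensor Sesn2 by 2.37 and the phosphatase Ppm1d, which switches the response off, by 1.91 on the log2 scale. Ppm1d, for example, was at 5.25, 5.22 and 5.76 FPKM in control cells and 24.9, 23.3 and 21 FPKM after exposure. Sesn1 was at 69.3, 70.4 and 64.3 FPKM against 55.4, 67.3 and 62.5 FPKM, groups that overlapped. Tigar, a regulator of sugar metabolism, was the member called lower, from 2.99, 3.3 and 3.56 FPKM to 1.39, 1.35 and 1.67 FPKM, and its adjusted p with named transcripts alone was 0.0785.

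Among targets of p53 for cell death, 7 of 12 tested were called higher and 2 lower, with a median log2 change of 0.70. The death receptors Eda2r and Fas rose by 4.10 and 2.64. Fas was at 5.79, 6.72 and 6.98 FPKM in the control group and 46.4, 46.3 and 44 FPKM in the 5 Gy 24 h group. Bax, which opens the outer mitochondrial membrane, rose from 47, 44.7 and 50.7 FPKM to 95.7, 95.5 and 101 FPKM, a log2 change of 1.02 (SE 0.10, adjusted p = 2.07e-06). Pmaip1, another activator of that route, was at 11.2, 15.3 and 16 FPKM and 15.2, 15.2 and 19.8 FPKM, with overlapping groups. Bok fell by 1.77, and Tp53i11 by 0.70 on the log2 scale, or by 0.55 and below the limit with quantile normalization.

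Targets of p53 for DNA repair did not move as a group. Of 9 tested, 2 (22.2%) were called higher and 2 (22.2%) lower, with a median log2 change of 0.36. These shares were close to those of all genes, 22.2% higher and 20.6% lower. Gadd45a rose by 1.76 and the translesion polymerase Polk by 1.51, while the nucleotide excision repair genes Ddb2 and Xpc had log2 changes of -0.39 and 0.14 and were not called. With a pseudocount of 0.1 or libraries rescaled to the same sum, 4 members were called higher, and 4 without the first exposed library.

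**Figure D4:**
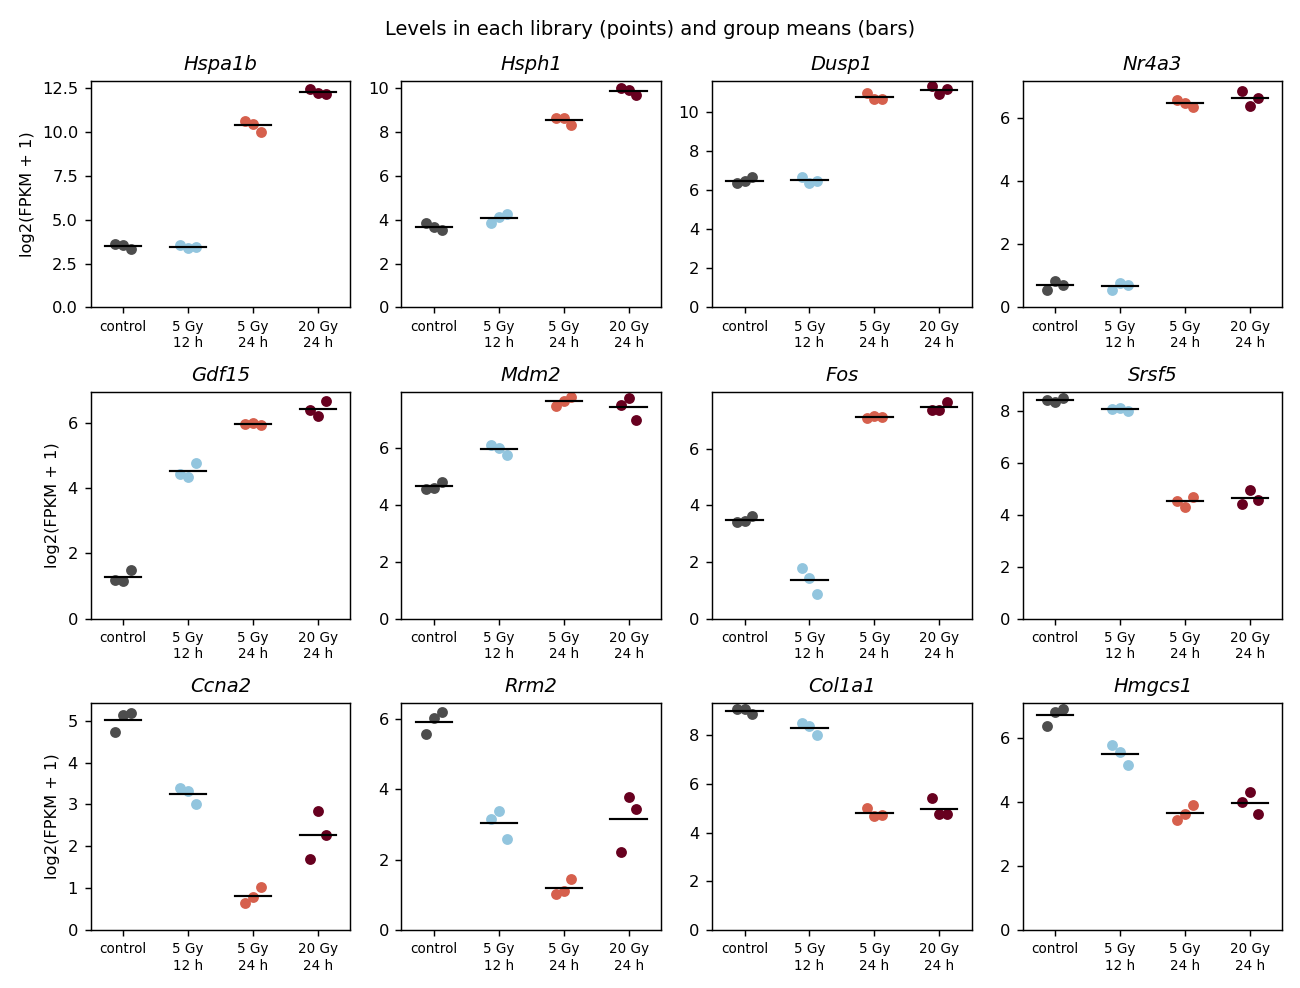
Levels of 12 genes as log2(FPKM + 1) in each library (points) and the group mean (bars) of control, 5 Gy 12 h, 5 Gy 24 h and 20 Gy 24 h cells. Hspa1b, Hsph1, Dusp1 and Nr4a3 were near the control level at 12 h, whereas Gdf15 and Mdm2 were already higher, and Fos was lower at 12 h and higher at 24 h.

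Every tested gene of mitosis fell. All 29 were called lower, against 20.6% of all genes, with a median log2 change of -2.81. Cyclin A2 (Ccna2, chr2:123275881-123282214), which drives cells through S phase and into mitosis, was at 25.5, 34 and 35.5 FPKM in control libraries and 0.57, 0.713 and 1.04 FPKM at 24 h after 5 Gy, 40.9-fold lower by the group means (log2 change -4.20, SE 0.26, adjusted p = 3.85e-08). Topoisomerase II alpha (Top2a), which untangles chromosomes, was at 23, 25.5 and 28.7 FPKM and 0.962, 1.17 and 0.904 FPKM. The ubiquitin-conjugating enzyme Ube2c fell by 3.53, the survival and spindle protein Birc5 by 3.25, the midzone protein Prc1 by 3.25, the kinase Cdk1 by 3.11, the checkpoint target Cdc20 by 3.02, the proliferation marker Mki67 by 2.86, cyclin B1 (Ccnb1) by 2.54 and Plk1 by 2.35 on the log2 scale. The least changed member was Cdc25c, the phosphatase that activates Cdk1, at -0.78, which was not called with named transcripts alone (adjusted p = 0.86). Kif23, a motor of cell division, was at 9.9, 0 and 12.9 FPKM in the control group and 0 in all exposed libraries. The groups of Kif23 overlapped, its locus holds another gene name, and its call (adjusted p = 0.0362) was lost under most alternatives, and 28 members were called lower without the first or the third control library or without any 1 of the exposed libraries.

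Promoters of mitotic genes are known to carry a CHR element, here TTTGAA, and CCAAT boxes, which bind complexes that repress or activate them through the cell cycle. Both were searched on both strands in 300 bases around the start site in RefSeq (GRCr8), from 250 bases before to 50 after it. Of 25 mitosis genes with a promoter in that table, 19 (76.0%) held TTTGAA and 20 (80.0%) held CCAAT, against 18.1% and 37.7% of all 27457 promoters. In the 3 genes shown no match of one motif overlapped a match of the other. The 250 bases before the start of 3 genes that fell are shown because they place both motifs close to the start site, with the motifs in capitals, on either strand. They are Cdk1 (chr20:19265043-19265292, plus strand), Top2a (chr10:84473094-84473343, minus strand) and Prc1 (chr1:143659231-143659480, plus strand), 5′ to 3′ in the direction of the gene. A match is a description of the letters and not evidence of binding in these cells.
Cdk1: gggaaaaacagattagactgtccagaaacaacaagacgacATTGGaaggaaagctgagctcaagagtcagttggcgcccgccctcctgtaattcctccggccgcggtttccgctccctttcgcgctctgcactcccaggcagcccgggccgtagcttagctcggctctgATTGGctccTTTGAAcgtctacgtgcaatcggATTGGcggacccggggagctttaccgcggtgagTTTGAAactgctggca
Top2a: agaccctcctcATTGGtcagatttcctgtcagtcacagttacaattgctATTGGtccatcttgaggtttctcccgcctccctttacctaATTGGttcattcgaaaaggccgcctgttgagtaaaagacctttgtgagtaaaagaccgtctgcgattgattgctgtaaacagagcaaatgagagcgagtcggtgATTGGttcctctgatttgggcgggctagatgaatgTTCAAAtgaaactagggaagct
Prc1: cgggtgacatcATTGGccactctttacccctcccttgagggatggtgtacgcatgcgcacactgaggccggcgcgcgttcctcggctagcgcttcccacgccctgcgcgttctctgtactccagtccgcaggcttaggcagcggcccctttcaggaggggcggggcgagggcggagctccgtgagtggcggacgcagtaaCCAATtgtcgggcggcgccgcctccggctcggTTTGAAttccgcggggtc
Cdk1 held TTTGAA at 72 to 67 and at 16 to 11 bases before the start, Top2a its reverse complement at 22 to 17, and Prc1 TTTGAA at 18 to 13.

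Genes of DNA replication fell as well, with 25 of 29 called lower, 1 higher and a median log2 change of -1.71. The epigenetic regulator Uhrf1, which copies DNA methylation, was at 17.5, 22.2 and 21.4 FPKM in the control group and 0.665, 1.03 and 0.66 FPKM in the 5 Gy 24 h group, a log2 change of -3.58 (SE 0.19, adjusted p = 1.21e-08). The helicase subunits Mcm5 and Mcm2 fell by 3.52 and 1.64, and the sliding clamp Pcna by 1.46, from 90.8, 118 and 131 FPKM to 40.7, 40.8 and 38.7 FPKM. Cyclin E1 (Ccne1) fell by 0.97, although its most abundant transcript alone was not called (adjusted p = 0.62). Cyclin E2 (Ccne2) had a log2 change of 0.13 and overlapping groups. Tyms, which makes thymidylate, was the gene called higher, from 25.3, 27.4 and 32.7 FPKM to 42.6, 45.8 and 46.6 FPKM, and its log2 change of 0.65 dropped below the 1.5-fold limit without the first control library (0.57). Gins2 and Orc1 were not called, at 0.61 and -0.43, but without the first exposed library Gins2 was, at 1.06 (adjusted p = 0.000565).

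Genes of break repair and checkpoints were divided. Of 27 tested, 13 were called lower, 2 higher and 12 neither, with a median log2 change of -0.58, and 4 were called higher without the first control library. H2afx, the histone variant that is phosphorylated beside breaks, was at 65.6, 71.1 and 63.6 FPKM in control cells and 6.29, 6.28 and 5.37 FPKM after exposure, a log2 change of -3.28 (SE 0.11, adjusted p = 1.47e-10). The homologous recombination genes Fancd2 and Brca1 fell by 2.59 and 1.49. The sensors of breaks did not follow them: Atm was at 4.73, 4.46 and 4.85 FPKM and 4.55, 5.04 and 5.03 FPKM, and Rad50 and Nbn had log2 changes of -0.01 and -0.18. Tp53bp1, which protects broken ends, was called higher at 0.68, but with named transcripts alone its adjusted p was 0.239, and 6 members were called lower in that case.

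Most genes of the heat shock response rose at this time. Of 32 tested genes, 19 were called higher, against 22.2% of all genes, and 1 lower, or 2 lower without the second control or the third exposed library, with a median log2 change of 0.90, and their summed level went from 2190 to 2400 FPKM in the control group to 5630 to 6680 FPKM. Besides Hspa1b and Hsph1, the mitochondrial chaperonin Hspd1 was at 53.8, 54.9 and 80.9 FPKM in control libraries and 284, 289 and 224 FPKM in exposed libraries, a log2 change of 2.07 (SE 0.17, adjusted p = 4.74e-07) that was 3.71 with named transcripts alone. The cytosolic chaperones Hsp90aa1 and Hsp90ab1 rose by 1.70 and 1.29. Hsp90ab1 was among the most abundant members, at 395, 424 and 477 FPKM and then 1130, 1080 and 975 FPKM. The co-chaperones Chordc1, Cacybp, Bag3 and Dnajb1 rose by 2.34, 2.26, 1.96 and 1.64, although with its most abundant transcript alone Cacybp was not called (adjusted p = 0.0877), and the small heat shock protein Hspb1 rose by 1.24.

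The factor that drives this response, Hsf1, was not called, at 17.1, 20.5 and 19.8 FPKM against 20.3, 18.6 and 21.8 FPKM with overlapping groups, while its relative Hsf2 rose by 0.77, or by 1.47 with named transcripts alone. Hspe1, the partner of Hspd1, and the collagen chaperone Serpinh1 had log2 changes of 0.53 and 0.47 and were not called, but both were called with quantile normalization (0.81 and 0.73), and Hspe1 also without the third control library (0.59). Hspa2, a form of the testis and of other tissues, was the member called lower, from 9.46, 9.21 and 8.4 FPKM to 4.51, 4.6 and 4.58 FPKM, a call lost with its most abundant transcript alone (adjusted p = 0.0941).

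HSF1 binds the heat shock element, here the units GAA, TTC and GAA with any 2 bases between one and the next, on either strand. Of 28 heat shock genes with a RefSeq promoter (GRCr8), 7 (25.0%) held it in the 300 bases around the start, against 0.736% of all 27457 promoters. They were Hspa8, Hsph1, Hspd1, Hspe1, Dnaja1, Chordc1 and Serpinh1, of which 4 were called higher. Hspa8 was listed at 0 in a locus with several gene names. The 250 bases before the start of a strongly changed, a changed and an uncalled gene are shown with the element in capitals, for Hsph1 (chr12:10427118-10427367, plus strand), Hspd1 (chr9:64084038-64084287, minus strand) and Serpinh1 (chr1:163062977-163063226, minus strand).
Hsph1: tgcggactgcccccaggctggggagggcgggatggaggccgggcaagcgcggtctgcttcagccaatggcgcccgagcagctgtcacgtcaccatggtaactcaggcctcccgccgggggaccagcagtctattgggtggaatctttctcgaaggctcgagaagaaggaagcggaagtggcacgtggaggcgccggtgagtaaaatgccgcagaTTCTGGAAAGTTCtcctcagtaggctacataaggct
Hspd1: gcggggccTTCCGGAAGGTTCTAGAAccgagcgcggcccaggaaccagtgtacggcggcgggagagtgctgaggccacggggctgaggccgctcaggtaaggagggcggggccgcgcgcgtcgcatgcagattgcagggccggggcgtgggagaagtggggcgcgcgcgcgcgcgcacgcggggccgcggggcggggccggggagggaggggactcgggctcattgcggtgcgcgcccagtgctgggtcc
Serpinh1: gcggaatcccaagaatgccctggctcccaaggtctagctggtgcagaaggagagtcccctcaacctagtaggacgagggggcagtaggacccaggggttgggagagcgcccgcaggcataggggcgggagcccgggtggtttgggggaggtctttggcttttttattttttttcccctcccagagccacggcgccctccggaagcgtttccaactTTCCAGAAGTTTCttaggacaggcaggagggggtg
The element lay 36 to 24 bases before the start in Hsph1 and 35 to 23 bases before it in Serpinh1, although their log2 changes were 4.84 and 0.47. In Hspd1 the capitals are 2 matches that overlap each other, at 242 to 230 and 237 to 225 bases before the start, in the stretch between Hspd1 and Hspe1, which are transcribed away from each other.

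Genes of endoplasmic reticulum stress and the integrated stress response were called higher in 11 of 22 cases and lower in none, with a median log2 change of 0.48. The pseudokinase Trib3 was at 0.856, 0.978 and 0.964 FPKM in the control group and 14.6, 23 and 30.1 FPKM in the 5 Gy 24 h group (log2 change 3.55, SE 0.23, adjusted p = 5.91e-08). The transcription factor Ddit3, also known as CHOP, rose by 3.28, the glutathione-degrading enzyme Chac1 by 2.71 and the degradation factor Herpud1 by 2.41. The classic chaperones of the endoplasmic reticulum were not called: Hspa5 was at 231, 246 and 258 FPKM and 227, 304 and 301 FPKM, and Calr had a log2 change of 0.13. Atf4, which is controlled mainly at the level of translation, was at 78.3, 70.4 and 87.9 FPKM and 47.3, 56.6 and 65.3 FPKM, and shares its locus with another gene name. Without the third exposed library it was called, at -0.59 (adjusted p = 0.00532).

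Immediate early genes moved in both directions. Of 27 tested, 14 were called higher and 8 lower, with a median log2 change of 0.72. Dusp1, a phosphatase that shuts off MAP kinases (chr10:16970626-16973418), was at 81.5, 87.2 and 101 FPKM in control libraries and 2070, 1660 and 1660 FPKM at 24 h after 5 Gy, a 20.0-fold ratio of the means (log2 change 4.30, SE 0.14, adjusted p = 1.36e-10, and 5.87 with named transcripts alone). Fos was at 9.55, 9.75 and 11.4 FPKM and 134, 140 and 137 FPKM, with a log2 change of 3.62. Klf4 rose by 3.47, Nr4a1 by 3.43, Junb by 2.66, Myc by 2.10 and Atf3 by 1.44. Myc is a driver of growth and division, and its rise from 2.79, 2.49 and 3.32 FPKM to 16.4, 18 and 12.6 FPKM stood beside the fall of the mitosis genes.

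The early growth response family went the other way. Egr1 was at 56.7, 62.4 and 59.4 FPKM in control cells and 1.86, 2.26 and 2.78 FPKM after exposure, a log2 change of -4.20 (SE 0.56, adjusted p = 2.71e-05), and Egr2 fell by 2.52 from 4.68, 4.65 and 5.36 FPKM to at most 0.0408 FPKM. Ier3 and Jund fell by 2.01 and 1.91, and Jun was not called at 22.3, 20.9 and 24.3 FPKM against 18.7, 18.5 and 18.4 FPKM.

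The cyclic AMP response element TGACGTCA, a palindrome that reads the same on both strands and is known from several immediate early genes, was found in 5 of 19 members with a RefSeq promoter (26.3%), against 1.91% of all promoters. Of these, 2 were called higher and 1 lower. It is shown in capitals for the members that rose, in the 250 bases before the start of Dusp1 (chr10:17184603-17184852, plus strand) and Btg2 (chr13:48087691-48087940, minus strand) in GRCr8.
Dusp1: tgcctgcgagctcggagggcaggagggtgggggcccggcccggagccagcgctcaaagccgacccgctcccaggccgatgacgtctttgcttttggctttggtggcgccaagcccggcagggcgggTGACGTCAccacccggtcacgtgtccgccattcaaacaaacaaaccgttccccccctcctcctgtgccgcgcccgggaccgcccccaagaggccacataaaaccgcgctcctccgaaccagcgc
Btg2: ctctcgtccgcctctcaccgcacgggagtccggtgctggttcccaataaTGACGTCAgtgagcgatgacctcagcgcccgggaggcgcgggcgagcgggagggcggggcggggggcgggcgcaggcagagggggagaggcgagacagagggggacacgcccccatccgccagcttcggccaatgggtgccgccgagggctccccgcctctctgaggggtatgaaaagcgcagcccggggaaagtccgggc
The element lay 124 to 117 bases before the start of Dusp1 and 201 to 194 before that of Btg2.

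Of the NF-kB and inflammation genes, 11 of 29 were below the limit for testing, and of 18 tested 10 were called higher and 4 lower, with a median log2 change of 0.75. The cytokine Lif was at 0.31, 0.652 and 0.556 FPKM in the control group and 11.5, 11.4 and 14.3 FPKM in the 5 Gy 24 h group, a log2 change of 3.15. The chemokine scavenger Ackr3 rose by 2.34, the feedback inhibitors Tnfaip3 and Nfkbia by 2.32 and 0.87, and the transcription factor Cebpb by 2.26. Icam1, the adhesion molecule that leukocytes bind on endothelium, was at 123, 130 and 123 FPKM against 123, 125 and 125 FPKM. The chemokine Cxcl10 fell by 1.83 and the alarmin Il33 by 1.68. The call of Cxcl10 was lost without the third control library (adjusted p = 0.0658) or the first exposed library (adjusted p = 0.0679), and that of Il33 with named transcripts alone (adjusted p = 0.147), where 6 members of the list were called higher.

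Of 17 interferon and antigen processing genes tested, 4 (23.5%) were called higher and 2 (11.8%) lower, with a median of -0.11. Of all genes 22.2% were called higher and 20.6% lower. The peptide transporter Tap1, in a locus with another name, rose by 2.81 and the transcription factor Irf1 by 1.90, from 17.8, 18.5 and 17.5 FPKM to 75.1, 68.5 and 66.2 FPKM, while the interferon-induced Ifit2 and Isg15 fell by 0.86 and 0.78. NRF2 targets were called higher in 6 of 16 cases and lower in 1, or 2 without the second control or the third exposed library, with a median of 0.165. Osgin1 rose by 2.05 and heme oxygenase (Hmox1) by 0.83, whereas the quinone reductase Nqo1 fell by 1.22.

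All 20 tested genes of cholesterol synthesis fell, against 20.6% of all genes, with a median log2 change of -2.04, and their summed level went from 1400 to 1740 FPKM in control libraries to 319 to 420 FPKM. Hmgcs1, which makes the precursor HMG-CoA (chr2:52431601-52445055), was at 82.6, 113 and 120 FPKM and 9.93, 11.3 and 14.1 FPKM, 8.95-fold lower by the means (log2 change -3.05, SE 0.25, adjusted p = 3.48e-07). Idi1, Sqle and Fdps, which act between mevalonate and cholesterol, fell by 2.85, 2.84 and 2.63. The sterol sensor Insig1 fell by 2.44 and the transcription factor of the pathway, Srebf2, by 1.27. The smallest fall was that of Sc5d, at 0.74, which was not called with named transcripts alone (adjusted p = 0.0644).

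Collagens and matrix enzymes fell in 15 of 24 cases, with 1 called higher, or 2 without the first exposed library, and a median of -0.87. Col1a1 (chr10:82745801-82762789) was at 535, 546 and 467 FPKM in control libraries and 31, 24.4 and 25.7 FPKM in exposed libraries, 19.1-fold lower by the means (log2 change -4.21, SE 0.17, adjusted p = 1.25e-09). Col3a1, in a locus with another name, fell by 4.26 and Col1a2 by 4.17, although with named transcripts alone the change of Col1a2 was -2.39 and with its most abundant transcript it was not called (adjusted p = 0.0859). The fibrillar Col5a1 fell by 2.51, and the basement membrane collagens Col18a1 and Col4a1 by 1.54 and 1.49, of which Col18a1 was not called with its most abundant transcript alone (adjusted p = 0.258). The gelatinase Mmp2 was the gene called higher, from 92.1, 90.2 and 91.5 FPKM to 193, 205 and 224 FPKM.

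Fibroblast and meningeal markers, some of which are the same collagens, were called lower in 9 of 17 cases and higher in 1, with a median of -0.92, and their summed level went from 5020 to 5430 FPKM to 2310 to 3060 FPKM. Dcn, Lum and Crabp2 fell by 1.23, 1.43 and 1.51, whereas Fn1 and Thy1 were not called, at -0.81 and -0.92. Without the first control or the third exposed library Thy1 was called, both times at -1.07 and close to the limit (adjusted p = 0.0495 and 0.05). Pericyte and smooth muscle markers held 9 tested genes, 3 lower and 1 higher, or 2 higher without the first control or the third exposed library, with summed levels of 184 to 203 FPKM and 98.2 to 122 FPKM. Pdgfrb and Cspg4 fell by 1.25 and 0.98. Of 13 endothelial and barrier genes tested, 2 (15.4%) were called higher and 1 (7.69%) lower, against 22.2% and 20.6% of all genes. The list median was -0.24, with summed levels of 129 to 151 FPKM and 150 to 162 FPKM. The amino acid transporter Slc7a5 rose from 14.2, 15.4 and 13.1 FPKM to 45.4, 53.1 and 57.1 FPKM, and Tjp1, in a locus with another gene name, from at most 0.0483 FPKM to 24.6, 14.5 and 14.5 FPKM. Ramp2, also in a locus with several names, fell by 0.85. The part of a shift in cell types in the changes above was not tested.

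Of the markers of other brain cells many were below the limit for testing. Astrocyte markers were lower in 3 of 7 tested and higher in 1, with summed levels of 519 to 767 FPKM in control libraries and 376 to 438 FPKM in exposed libraries, most of it Gja1. Oligodendrocyte markers were lower in 1 of 3, or in 0 without the first control or the third exposed library, with sums of 619 to 885 FPKM and 383 to 561 FPKM, most of it Cldn11. Neuron markers were lower in 1 of 3 (Stmn2, by 1.62), with sums of 61.0 to 74.9 FPKM and 23.9 to 32.6 FPKM. Microglia markers were lower in the 1 tested (Tmem119, by 1.02), with sums of 22.2 to 33.7 FPKM and 10.7 to 11.4 FPKM, while 12 were below the limit.

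Targets of SRF and YAP and contractile genes were called lower in 8 of 13 cases and higher in 1, with a median of -0.85. The matricellular Ccn2 fell by 1.84, the adhesion protein Vcl by 1.26 and Srf itself by 1.18, a call not held by its most abundant transcript alone (adjusted p = 0.139) but larger with all named transcripts (-2.58), whereas Ccn1 was not called at 0.02. Of Wnt receptors and targets, 6 of 19 were called higher and 7 lower, with a median of 0.00. Adgra2, which acts in Wnt7 signalling, was at 147, 143 and 127 FPKM in control cells and 18.5, 27.9 and 35.1 FPKM after exposure. The receptors Fzd2 and Fzd7 fell by 2.32 and 1.56 and Ctnnb1, the effector of the pathway, by 0.82, which with quantile normalization was -0.56 and below the limit. With named transcripts alone Fzd2 was not called (adjusted p = 0.589) and the change of Fzd7 was -5.50. TGF-beta and BMP signalling genes were higher in 5 of 21 cases (23.8%) and lower in 4 (19.0%), with a median of 0.21. These shares were close to those of all genes, 22.2% higher and 20.6% lower. The lower count was 2 without the first or the second control library or without the second exposed library. The ligand Gdf6 rose by 2.76 and Tgfb1 fell by 1.60.

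Splicing factors and cold-inducible RNA-binding proteins held 2 higher and 6 lower of 16 tested, with a median of -0.32. Srsf5 was at 347, 325 and 368 FPKM in control libraries and 22.5, 18.8 and 25.1 FPKM in exposed libraries, 15.6-fold lower by the means (log2 change -3.91, SE 0.12, adjusted p = 1.36e-10). Srsf6 fell by 2.53, Srsf4 rose by 0.79, and Clk1, the kinase that phosphorylates these factors, rose from 18.4, 21.2 and 22 FPKM to 120, 124 and 123 FPKM. The log2 change of Clk1 was 2.52, and 5.65 with named transcripts alone.

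Circadian clock genes were called higher in 12 of 16 cases and lower in 1, against 22.2% of all genes called higher, with a median of 1.01. The repressors Bhlhe41, Per1 and Nr1d1 rose by 2.04, 1.32 and 1.29, and with named transcripts alone the changes of Per1 and Nr1d1 were 2.93 and 2.28. Per1 was at 51.9, 49.8 and 47.6 FPKM in the control group and 136, 121 and 122 FPKM in the 5 Gy 24 h group. Nr1d1 was not called with its most abundant transcript alone (adjusted p = 0.234), and 7 members were called higher with named transcripts alone.

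Most genes of energy metabolism and of the proteasome were not called. Of 26 genes of oxidative phosphorylation 7 (26.9%) were called lower and none higher, with a median of -0.43. Of 14 genes of the tricarboxylic acid cycle 4 (28.6%) were lower with a median of -0.29, and of 32 of the proteasome 5 (15.6%) with a median of -0.37. Of all genes 20.6% were called lower. The lower counts of the lists became 1, 1 and 2 when libraries were rescaled to the same sum, and 4, 2 and 3 without the third control library. Uqcrfs1, a subunit of respiratory complex III, was the most changed of the first list, from 97.6, 101 and 116 FPKM to 34.9, 38.1 and 37.5 FPKM. Glycolysis genes and hypoxia targets held 2 higher and 8 lower of 19, with a median of -0.47, and 4 were higher without the second control or the third exposed library. The vasodilator Adm fell by 1.97 and Pfkp by 1.80, while hexokinase 2 (Hk2) rose by 1.05.

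Store-operated calcium entry is the refilling of calcium stores through Orai channels, and the study followed the channel gene Orai2. Of 14 genes tested 3 were called higher and 3 lower (21.4% each), with a median of -0.12. These shares were close to those of all genes, 22.2% higher and 20.6% lower. Orai2 was at 3.34, 3.32 and 3.13 FPKM in control libraries and 5.78, 6.02 and 6.1 FPKM at 24 h after 5 Gy, a log2 change of 0.71 (SE 0.10, adjusted p = 6.31e-05). The calcium sensor Stim2 rose by 0.91, and the calcium release channel Itpr3 fell by 1.81. Among 38 genes that the study names, 25 were called higher and 6 lower, with a median of 1.49. The study chose that list on these samples, so its direction is not independent evidence. Of this list Ccdc117 and Zfp217 rose by 3.72 and 2.80, and Svop, a vesicle protein, from at most 0.114 FPKM to 5.95, 5.7 and 6.01 FPKM.

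To see which of these levels belonged to the 24 h time point, the 5 Gy 24 h cells were compared with the 5 Gy 12 h cells in the same fit. Of the 13081 genes 4803 (36.7%) were called, 2462 higher and 2341 lower at 24 h. Of the 5603 genes that differed from control at 24 h, 3870 (69.1%) were called in the same direction between 12 and 24 h, 21 in the opposite direction and 1712 not. These comparisons share the 5 Gy 24 h libraries, so the overlap is no separate result. The heat shock list had 20 members called higher and 2 lower at 24 h than at 12 h, against 18.8% of all genes called higher, with a median of 1.005 beside -0.04 for all genes. Hspa1b was at 10.7, 9.28 and 9.99 FPKM at 12 h, Hsph1 at 13.3, 16.2 and 18.4 FPKM, Nr4a3 at 0.459, 0.728 and 0.634 FPKM and Dusp1 at 104, 83.5 and 89.7 FPKM. The level of each was close to that of control at 12 h, and the log2 change from 12 h to 24 h was 6.92, 4.45, 5.78 and 4.27.

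The largest rises from 12 to 24 h were those of LOC108348108, Hspa1b, Nr4a1, AABR07047256.1 and Nr4a3. Nr4a1 was at 33.6, 36.6 and 38.6 FPKM in control cells, 6.56, 4.16 and 2.31 FPKM at 12 h and 487, 420 and 314 FPKM at 24 h, so that it fell below control first and then rose above it. Fos had the same order of levels, with 2.43, 1.67 and 0.839 FPKM at 12 h. The largest falls were those of AABR07067556.1, Tuba1a, Tuba1b, Col3a1 (-4.29) and NEWGENE_621351. Col1a1 was at 367, 329 and 260 FPKM and Srsf5 at 271, 281 and 258 FPKM at 12 h, so most of their fall came after that time.

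Many p53 targets and replication genes had moved earlier. At 12 h after 5 Gy 1277 genes (9.76%) were called against control. Of the 17 arrest targets 12 were called higher at 12 h than in control, against 4.5% of all genes, with a median of 1.30, beside 15 and 2.16 at 24 h, and Gdf15 was at 20.4, 19.2 and 26.4 FPKM at 12 h. Of 29 replication genes 27 were called lower at 12 h, against 5.27% of all genes, with a median of -1.53, beside 25 and -1.71 at 24 h, and between the times 6 fell and 4 rose. Pcna was at 41.3, 37.8 and 45.8 FPKM at 12 h, close to its level at 24 h. Most mitosis genes fell further, with medians of -1.12 at 12 h and -2.81 at 24 h, and 27 of 29 were called lower at 24 h than at 12 h, against 17.9% of all genes. Of the cholesterol genes, 16 of 20 were called lower at 12 h with a median of -1.17, and 16 fell again between the times. Orai2 was at 5.06, 5.36 and 6.31 FPKM at 12 h and did not change further by the test (log2 change 0.09, adjusted p = 0.501).

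**Figure D5:**
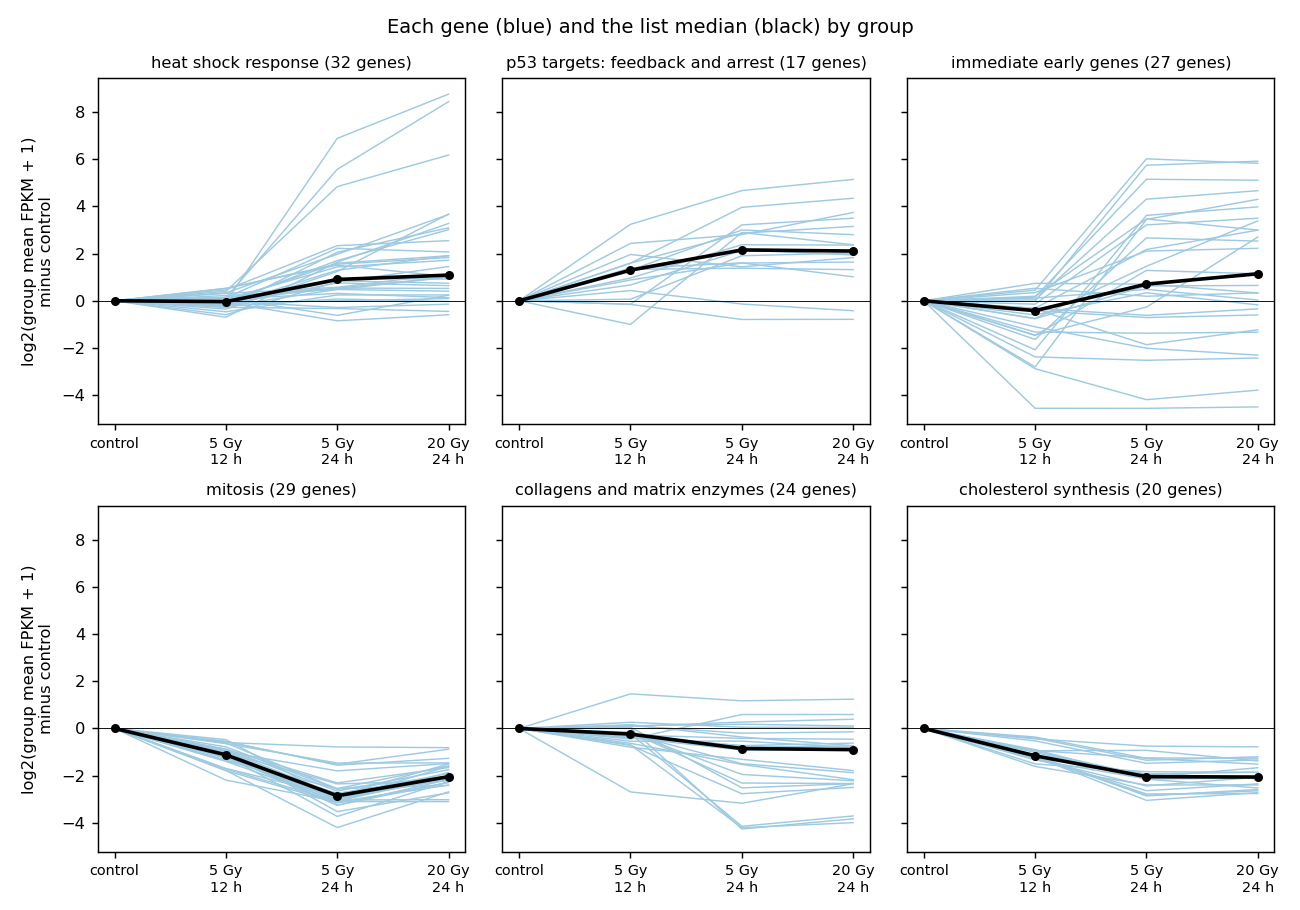
Difference from control in log2(group mean FPKM + 1) for each gene (blue) and the list median (black) of 6 lists in control, 5 Gy 12 h, 5 Gy 24 h and 20 Gy 24 h cells. Of the heat shock and immediate early genes 20 of 32 and 15 of 27 were called higher at 24 h than at 12 h and 2 of each lower, 12 of 17 arrest targets of p53 were higher than control at 12 h, and the median of the mitosis genes was lowest at 24 h after 5 Gy.

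Between the doses of 20 Gy and 5 Gy at 24 h 300 genes (2.29%) were called, 115 higher (0.879%) and 185 lower (1.41%) after 20 Gy, or 178 without the third 5 Gy library. The direction of these calls rested on the scaling, with 137 higher and 97 lower after quantile normalization and 111 higher and 299 lower when libraries were rescaled to the same sum, and a fit of only the 6 libraries compared gave 54 calls. Among the 5603 genes that differed from control after 5 Gy, 202 (3.61%) were called between the doses. These groups share the 5 Gy libraries with the first comparison. After 20 Gy 5428 genes (41.5%) were called against control. Of the heat shock genes, 10 of 32 were called higher after 20 Gy, with a list median of 0.27 beside -0.07 for all genes. Hspa1b was at 5610, 4710 and 4550 FPKM after 20 Gy, above every 5 Gy library (log2 change 1.89, SE 0.14, adjusted p = 1.37e-05), Hspb1 at 521, 617 and 663 FPKM and Dnajb1 at 509, 374 and 415 FPKM. Jun, which was not called after 5 Gy, was at 190, 122 and 143 FPKM after 20 Gy, a log2 change of 2.94 between the doses. Hspa1l, Adam8, LOC103692169 and Hspb1 were the other 4 of the largest rises, at 3.32, 2.60, 2.51 and 2.45. Hspa1l was at 801, 684 and 339 FPKM after 20 Gy, and its call was lost in a fit of only the 6 libraries compared (adjusted p = 0.137) and with its most abundant transcript (adjusted p = 0.132). The loci of Adam8 and LOC103692169 hold other names, and LOC103692169 was not called without the first (adjusted p = 0.0541) or the second 5 Gy library (adjusted p = 0.0609).

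Of the mitosis genes 11 of 29 were called higher after 20 Gy than after 5 Gy and 18 were not called, with a list median of 0.71. Ccna2 was at 2.23, 6.16 and 3.84 FPKM after 20 Gy, above the 0.57, 0.713 and 1.04 FPKM after 5 Gy and below control (log2 change 1.45, adjusted p = 0.0105). Top2a and Mki67 had the same order. Of the integrated stress genes 4 of 22 were called lower and 2 higher after 20 Gy, and among the lower was Trib3 at 8.17, 7.64 and 11.1 FPKM. Gem was at 3.58, 3.06 and 6.75 FPKM after 20 Gy, below its 30.3 to 60.8 FPKM after 5 Gy, a call lost with a pseudocount of 0.1 (adjusted p = 0.073). Gtf3c5, Clec2d2, Zfp316 and Kcnj2 were the next largest falls from 5 to 20 Gy, at -3.01, -2.94, -2.25 and -1.93, and the first 3 are in loci with several names. The calls of Clec2d2, Zfp316 and Kcnj2 were each lost without any 1 of the 5 Gy libraries, with adjusted p of 0.0748 to 0.119. The arrest targets of p53 did not separate by the test: none of 17 was called higher and 1 lower, with a median difference of 0.01, and Mdm2 was at 182, 216 and 127 FPKM after 20 Gy.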

How the data were processed

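RNA-seq of cells labelled as rat BMECs gave 15 libraries in 5 groups of 3, and the groups are named by their labels. The deposited values were FPKM per transcript, made by the authors with HISAT2 and StringTie on Rnor_6.0 with the Ensembl annotation, and the submitters' processing notes also list HISAT2 2.0.13, Trimmomatic, FastQC, kallisto and edgeR without their roles. FPKM are not counts, so no count test was run, and depth was known only from the steps of low values.

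The table held 85322 transcripts. FPKM were summed per gene name, and 29433 of the 44258 unnamed transcripts were added to the only name of their locus. Unnamed transcripts of loci with several names (4738) or with none (10087) were left out of the named genes. Genes with a mean of at least 0.5 FPKM were tested on log2(FPKM + 1) with limma 3.58.1 (R 4.3.3), with all 15 libraries in 1 fit (10 residual degrees of freedom, trended variance prior, Benjamini-Hochberg adjustment over all tested genes). Genes were called at an adjusted p under 0.05 and a change of at least 1.5-fold. An exact permutation test of 3 against 3 libraries cannot go below p = 0.1 and was not used.

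The genes named in the text were the 12 largest rises and falls with a mean of at least 5 FPKM and no overlap, the 5 largest for each of the other comparisons, members of the lists with the largest change or that define the list, and genes of these listed at 0 in control libraries. The part of the data described, its members and the gene lists were chosen with earlier results of these data known. Alternatives were another pseudocount, scaling, filter, fold, variance prior, transcript sum, fit of 6 libraries, replicate block and leaving out each library. Named transcripts alone, leaving out loci with several names, and leaving out libraries for the lists were added after the data were seen. The fit was checked on simulated data in which 100 genes changed by 1 and 100 by 2 on the log2 scale. Of these 87% and 98% were recovered, and 14 unchanged genes were called. The simulation held far fewer changed genes than the data and no shift in scaling, so it does not cover these.

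No 2 libraries shared more than 0.00532% of their values above 0. Promoters are RefSeq sequences of GRCr8 and gene coordinates are those of the deposited table on Rnor_6.0, and these were not converted into each other. Python 3.11.15, pandas 2.3.3, numpy 2.4.6 and matplotlib 3.10.9 were used for tables and plots. Some genes are not reported here.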

Additional observations from a re-analysis of the deposited data

Results flagged for a closer look

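The level at 24 h after 5 Gy differed from that at 12 h in 4803 genes and from that after 20 Gy in 300 genes, each by the test of the difference itself (limma). Against control, 43 genes were called lower at 12 h and higher at 24 h, and 45 the reverse.

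Among the named genes, those that were below control at 12 h and above it at 24 h included the immediate early genes Nr4a1, Fos, Junb and Atf3, with log2 changes from 12 to 24 h of 6.31, 5.75, 4.36 and 2.20. The kinase Plk3 changed by 3.92, the stress-induced Osgin1 and heme oxygenase Hmox1 by 2.79 and 2.01, and the co-chaperone Dnajb1 by 2.34. The amino acid transporter Slc7a5, hexokinase Hk2 and the clock gene Per1 changed by 2.77, 2.17 and 2.00. The interferon-induced Isg15 took the other course, above control at 12 h and below it at 24 h, with -1.77 between the times.

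Several heat shock genes were higher after 20 Gy than after 5 Gy. Their log2 difference at 24 h was 3.32 for Hspa1l, 2.45 for Hspb1, 1.95 for LOC108348108, 1.89 for Hspa1b, 1.70 for Bag3, 1.63 for Dnajb1, 1.34 for Hsph1, 1.30 for Hsp90aa1, 1.04 for Hspd1 and 0.62 for Hsp90ab1. Of the genes that fell after 5 Gy, several were nearer to control after 20 Gy, with differences of 2.02 for Tuba1a, 1.97 for Pclaf, 1.96 for Rrm2, 1.45 for Ccna2, 1.41 for Top2a, 1.40 for Cdca3, 1.30 for Mki67, 1.05 for Birc5 and 0.93 for Prc1. Other genes higher after 20 Gy were Jun (2.94), Adam8 (2.60), LOC103692169 (2.51), RF00016 (2.15), Atf3 (1.94), Ccn1 (1.58) and Svop (0.62). Lower after 20 Gy were Gem (-3.03), Gtf3c5 (-3.01), Clec2d2 (-2.94), Zfp316 (-2.25), Kcnj2 (-1.93), Chac1 (-1.30), Trib3 (-1.20), Slc7a5 (-0.77), Herpud1 (-0.68) and Pdgfrb (-0.60).

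Outside the named genes, assembled loci without a gene name were tested in the same way at 24 h after 5 Gy against control. Of 4814 such loci 768 were called higher and 1033 lower (37.4% called).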

How the results depend on the processing

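FPKM without counts, 3 libraries a group, and unnamed transcripts in the gene sums limit these results. For 185 genes named, the alternatives gave 3130 values of the 24 h change against control. Of these, 3067 stayed called in the same direction or stayed uncalled. Of the rest, 45 lost the call, 17 gained it and 1 reversed (Hspa1l, -0.0715 with its most abundant transcript alone). A change of sign in a gene that stayed uncalled was not counted. Without 1 library, 4 of the 185 genes lost the call (Timp1, Kif23, Tyms and Cxcl10). For the 10 genes chosen as the largest rises and falls between the doses, 136 of 169 values kept the call and its direction and 33 lost the call. Without 1 library, 4 of the 10 genes lost it (LOC103692169, Clec2d2, Zfp316 and Kcnj2). The other genes named between the doses were not put through these alternatives. The causes of the changes below were not tested, apart from those set by a stricter or looser limit.

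For 24 h after 5 Gy against control, named transcripts alone gave 3608 called genes, 1600 of them higher and 2008 lower, and a fold of at least 2 gave 2835, 1494 higher and 1341 lower. Leaving out 1 library gave 5350 to 5642. For 24 h against 12 h, 1626 were higher with the most abundant transcript alone, named transcripts alone gave 2919 called and 1274 higher, and a fold of at least 2 gave 2188, 1169 higher and 1019 lower. For 20 Gy against 5 Gy, 97 were lower and 137 higher with quantile normalization, and 299 lower and 111 higher when libraries were rescaled to the same sum. A fit of only the 6 libraries compared gave 54 called (32 higher, 22 lower), sums per gene name and locus 456 called (186 higher), the most abundant transcript 142 (61 and 81), named transcripts alone 112 (57 and 55), a fold of at least 2 gave 84 (54 and 30), and an unadjusted p under 0.05 gave 582 (229 and 353). Leaving out 1 library gave 178 to 388 called, 74 to 126 higher and 104 to 276 lower, the lowest without the third 5 Gy 24 h library. Without genes in loci that hold several gene names, 5243, 4493 and 272 genes were called in the 3 comparisons.

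Among the lists, quantile normalization gave 1 astrocyte gene, 0 oligodendrocyte, 1 oxidative phosphorylation, 1 tricarboxylic acid cycle, 3 proteasome and 4 Wnt genes lower. Rescaling gave 1, 1 and 2 lower for oxidative phosphorylation, the cycle and the proteasome, and 4 higher for p53 repair targets, as did a pseudocount of 0.1. Named transcripts alone gave lower counts of 1 for p53 repair targets, 6 for break repair, 1 for astrocyte and 4 for Wnt genes, and higher counts of 6 for NF-kB, 2 for TGF-beta and BMP, and 7 for clock genes. Leaving out 1 library gave 2 to 4 higher p53 repair targets, and 0 to 1 oligodendrocyte, 4 to 8 oxidative phosphorylation, 2 to 4 cycle and 3 to 6 proteasome genes lower.

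The replicate numbers are shared by the groups, but samples with the same number did not deviate together in every pair by more than 0.1. Across genes r was 0.0207, -0.0009 and 0.029 between control and 5 Gy 24 h libraries, -0.1635, 0.0176 and -0.1235 between 5 Gy 12 h and 24 h libraries, and 0.192, 0.0879 and 0.0807 between 5 Gy and 20 Gy libraries at 24 h, so the number was not taken as a pairing. With the replicate block, 5588 genes were called against control (2910 higher, 2678 lower), 4797 between the times (2464 and 2333) and 274 between the doses (112 and 162). Among the named genes put through these alternatives the block ended the call of Kif23 against control (adjusted p = 0.0532, limma). It also ended that of Kcnj2 between the doses (adjusted p = 0.0518, limma).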
